A study of Mus musculus with 3 samples.

Results

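The cholinergic transmission genes are 9 genes of acetylcholine signalling, chosen by symbol among the 31040 genes counted in single nuclei of the mouse lumbar spinal cord. They are the presynaptic genes Chat, Slc5a7 and Slc18a3, the breakdown enzyme gene Ache, the muscarinic receptor genes Chrm2 and Chrm3, and the nicotinic subunit genes Chrna4, Chrna7 and Chrnb2. All 9 had a row in the count table, and 8 had at least 1 UMI (unique molecular identifier, a counted RNA molecule). Single-nucleus RNA sequencing was run on 12 mice aged 90 days, 6 B6.Cg-Tg(SOD1*G93A)1Gur/J mice (SOD1G93A) and 6 wild-type C57BL/6J littermates (WT), with 3 females and 3 males of each genotype. The SOD1G93A mice carry a high-copy human SOD1 gene, under its own promoter, with a mutation of familial amyotrophic lateral sclerosis. Each of the 3 pools A, B and C was made from hashtagged nuclei of a WT female, a WT male, an SOD1G93A female and an SOD1G93A male. The 14662 nuclei had been assigned by the study to 10 cell types, and its 8800 neurons other than motor neurons, save 27, to 9 sub-types, which gave 18 separate groups of nuclei. Counts of the Sod1 row, a check of the labels, were 174 to 594 CPM (UMIs of the gene per 1000000 UMIs of the nuclei considered) in the SOD1G93A mice and 31.2 to 106 CPM in the WT mice, with no overlap.

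Acetylcholine is the transmitter that spinal motor neurons release onto muscle and, through axon branches, onto other spinal neurons. Choline acetyltransferase (Chat) makes it, the vesicular transporter (Slc18a3) loads it into vesicles, acetylcholinesterase (Ache) breaks it down in the synaptic cleft, and the high-affinity choline transporter (Slc5a7) returns choline to the terminal. Muscarinic receptors act through G proteins, M2 (Chrm2) through inhibitory ones and M3 (Chrm3) through those that raise calcium. Nicotinic receptors are ion channels, built from alpha-7 subunits alone (Chrna7) or most often in the brain from alpha-4 and beta-2 subunits together (Chrna4, Chrnb2). In the cord, a small class of ventral interneurons also makes acetylcholine and sends the large cholinergic C boutons to motor neurons, where M2 receptors lie.

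Chat and Slc18a3 share a locus. In the GENCODE annotation of GRCm38, Chat spans chr14:32408203-32465989 on the minus strand, and Slc18a3 spans chr14:32462438-32464850 on the same strand, inside intron 1 of 4 Chat transcripts. No Chat exon overlaps Slc18a3. Slc5a7 lies apart, at chr17:54273590-54299034 on the minus strand. The sequences before the start of the 3 presynaptic genes are shown because these genes work together in 1 type of neuron and their counts differed as described below. They are from RefSeq (GRCm38.p6), which held all 9 members, and read 5′ to 3′ on the strand of the gene. Capitals mark matches on either strand to TGACG (the core of a cAMP response element), CACGTG and CAGCTG (E-boxes) or TAAT (a homeodomain core). Bases covered by an annotated Chat exon were left off. The Chat window is chr14:32465990-32466159, the Slc18a3 window, which lies in the Chat intron, is chr14:32464851-32465100, and the Slc5a7 window is chr17:54299035-54299284.
Chat: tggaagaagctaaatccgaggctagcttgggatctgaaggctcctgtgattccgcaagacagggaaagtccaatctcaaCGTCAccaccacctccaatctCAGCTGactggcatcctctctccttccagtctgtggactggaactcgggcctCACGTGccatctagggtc
Slc18a3: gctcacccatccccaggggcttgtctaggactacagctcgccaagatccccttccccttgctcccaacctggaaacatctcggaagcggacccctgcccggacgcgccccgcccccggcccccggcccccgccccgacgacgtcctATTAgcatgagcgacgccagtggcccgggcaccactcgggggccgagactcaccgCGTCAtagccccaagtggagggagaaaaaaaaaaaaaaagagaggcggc
Slc5a7: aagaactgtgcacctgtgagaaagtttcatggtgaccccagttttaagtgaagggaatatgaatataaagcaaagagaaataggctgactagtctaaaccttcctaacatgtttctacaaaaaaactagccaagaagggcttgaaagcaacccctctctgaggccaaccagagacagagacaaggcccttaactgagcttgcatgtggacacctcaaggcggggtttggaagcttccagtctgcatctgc
Of the 32851 RefSeq promoters, 17.8% held TGACG in the 250 bases before the start, 6.02% CACGTG, 13.0% CAGCTG and 54.9% TAAT. TGACG was found in Chat, Slc18a3 and Chrnb2, CACGTG in Chat, Ache and Chrna7, CAGCTG in Chat, and TAAT once in Slc18a3 and 2 times in Chrm2. Both parts of the REST element, CAGCACC and GGACAG, were in 5.73% and 18.7% of promoters, the first in no member and the second in Chrm2 and Chrm3. The Slc5a7 window held none of the 6 motifs. A match is only a run of letters, and was not tested as a site.

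The 67 motor neuron nuclei, 44 from WT and 23 from SOD1G93A mice, had the most Chat and Slc5a7 UMIs per nucleus of the 18 groups. The study named cell types by marker genes and by whole-transcriptome profiles. Chat, with Slit3 and Prph, is a marker of motor neurons, so its level there is a description. Of the 67 nuclei, 62 had UMIs of both Chat and Slc5a7, 2 of Chat only, 2 of Slc5a7 only and 1 of neither. Chrm2 was found in all 67 nuclei, Chrna7 in 44, Ache in 37, Chrm3 in 28, Chrnb2 in 19 and Chrna4 in 4. A motor neuron nucleus had a median of 53245 UMIs, against 12864.5 in the other neurons, 5786 in oligodendrocytes and 1584 in the Schwann and meningeal group, so shares of nuclei with a UMI cannot be compared between types without thinning. The median nucleus had 7 Chat UMIs (0 to 60), 7 Slc5a7 UMIs (0 to 69) and 41 Chrm2 UMIs (1 to 196).

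Slc18a3 was the exception. It had 0 UMIs in all 14662 nuclei. With 3 counts taken as the limit for a count of 0, this allows a share of nuclei with a UMI of up to 0.0205%. In motor neurons the same limit is 4.48%, by counting error alone, and the exact 95% interval used elsewhere reached 5.36%. The same 67 nuclei held 606 Chat UMIs and 858 Slc5a7 UMIs. Reads had been counted over whole genes with introns, and Slc18a3 lies whole within the Chat intron on the same strand. Whether this nesting has a part in the 0 was not tested.

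**Figure D1:**
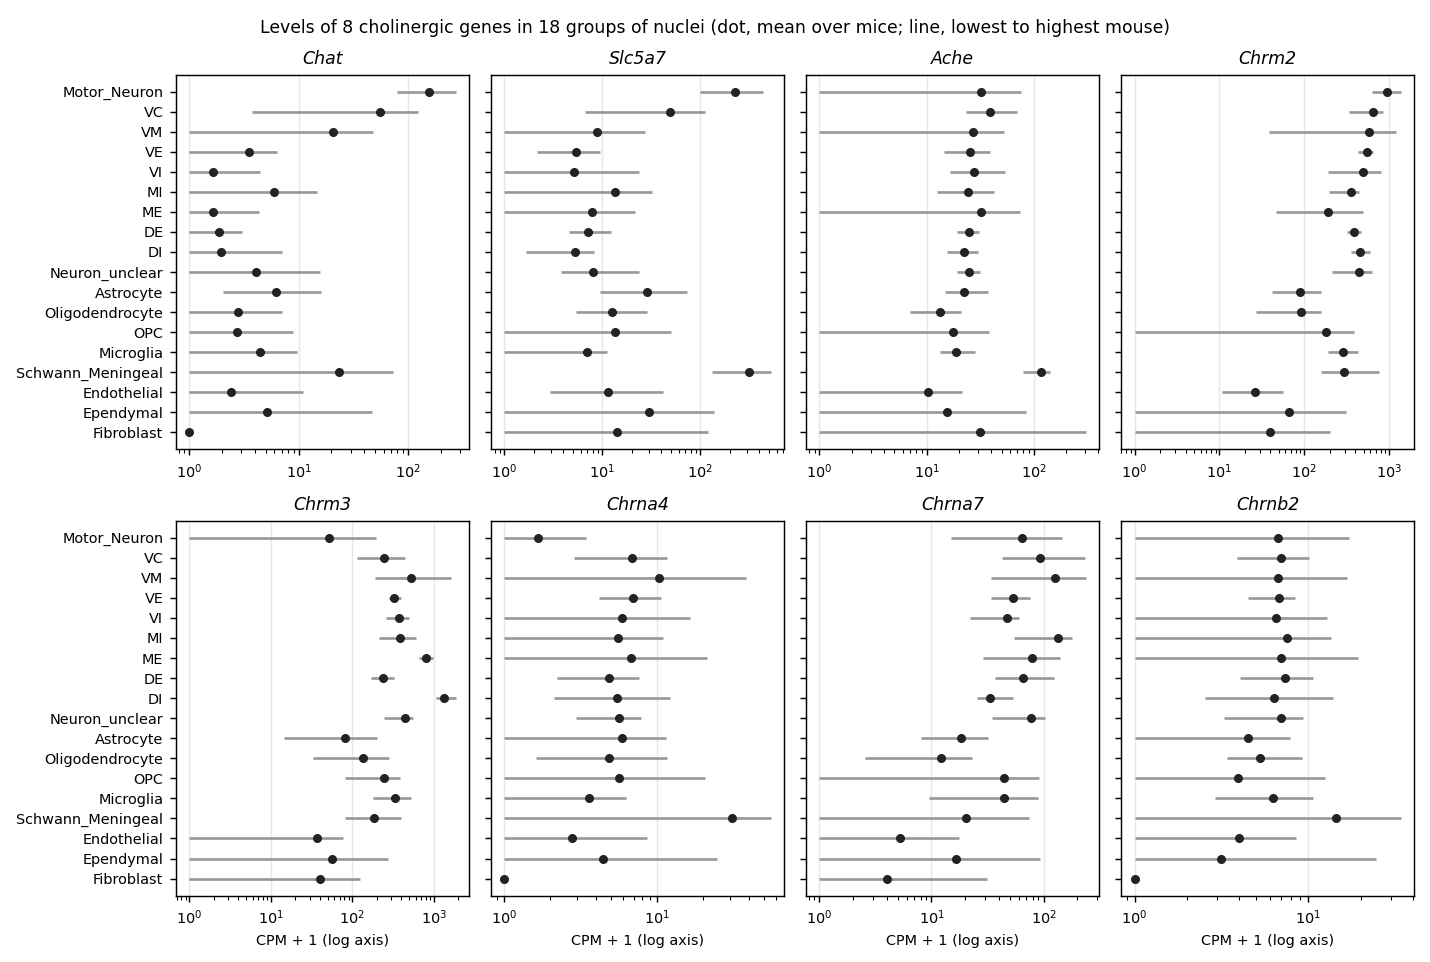
Level of the 8 members with UMIs in 18 groups of nuclei, as CPM + 1 on a log axis. Dots are means over the mice and lines run from the lowest to the highest mouse. Chat is highest in motor neurons, at a mean of 155 CPM, whereas Slc5a7 and Ache are highest in the Schwann and meningeal group.

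Chat stood at 155 ± 62.5 CPM (SD, n = 12 mice) in motor neurons, with a lowest mouse at 78.1, a median of 162 and a highest at 274. The ventral cholinergic sub-type (VC) came next, with 54.5 ± 33.4 CPM (2.74 to 124), and was below motor neurons in 12 of 12 mice. The Schwann and meningeal group (22.3 ± 18.7 CPM) and the ventral mixed sub-type VM (19.6 ± 16.4 CPM) followed, and did not differ beyond their spread, the first being higher in 7 of 12 mice. In the dorsal excitatory (DE) and dorsal inhibitory (DI) neurons Chat was at 0.890 and 0.957 CPM, with 37 and 17 UMIs in all.

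Slc5a7 did not follow Chat in all groups. It was at 309 ± 116 CPM in the Schwann and meningeal group, at 223 ± 105 CPM in motor neurons and at 48.1 ± 29.5 CPM in VC. The Schwann and meningeal group was above motor neurons in 9 of 12 mice, and motor neurons were above VC in 12 of 12. Counted as UMIs per nucleus, Slc5a7 was highest in motor neurons (14.0) and reached 0.83 in the Schwann and meningeal group. For 1 Chat UMI there were 1.42 Slc5a7 UMIs in motor neurons (exact 95% interval 1.27 to 1.57, counting error only), 1.01 in VC (0.871 to 1.16) and 0.522 in VM (0.337 to 0.798). It was 1.41 in VE (ventral excitatory), 1.55 in microglia, 2.36 in MI (mid inhibitory) and 2.42 in neurons of unclear sub-type. The same ratio was 5.23 in oligodendrocytes, 5.67 in astrocytes, 6.00 in DE and 11.2 in the Schwann and meningeal group (8.96 to 14.2).

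The Schwann and meningeal label was checked against marker genes. Its own markers Pmp22 and Prx stood at 116 and 2.15 CPM there, while the oligodendrocyte markers Mbp and Mog stood at 1795 and 129 CPM and the 5 motor neuron markers summed to 173 CPM, against 1407 CPM in motor neurons. Of these, Prph stood at 71.4 CPM, beside 87.4 CPM in motor neurons, and Slit3 at 73.4 CPM. Markers of inhibitory neurons summed to 699 CPM and those of astrocytes to 524 CPM in the same nuclei. After 1 random thinning of each nucleus to 2000 UMIs, 49.9% of the 363 nuclei deep enough had a UMI of Slc5a7 (exact 95% interval 44.6 to 55.1), against 1.84% of oligodendrocytes and 6.86% of VC. Too shallow and left out were 668 of the 1031 nuclei of this group, 102 of 2165 oligodendrocytes and 0 of 350 VC nuclei. For Chat the shares in that draw were 6.89% (exact 95% interval 4.51 to 10.0), 0.533% and 8.57% (5.86 to 12.0), and no order was read between the first and the last. The part of RNA from other cells in these values was not tested.

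Ache, too, was highest by CPM in the Schwann and meningeal group, at 115 ± 21.6 CPM, above VC (38.4 ± 12.0) in 12 of 12 mice. In motor neurons it stood at 31.1 ± 21.9 CPM, with a lowest mouse at 0 (1 nucleus) and a highest at 75.7. The sub-types of neurons other than VC lay close together, between 21.5 CPM in DI and 31.0 CPM in mid excitatory neurons (ME). Chrna4 and Chrnb2, the subunits of the receptor built from both, were sparse. Chrna4 was at 29.9 ± 17.0 CPM and Chrnb2 at 13.4 ± 10.2 CPM in the Schwann and meningeal group, whereas in the neuron sub-types Chrna4 ran from 3.8 to 9.32 CPM and Chrnb2 from 5.34 to 6.59 CPM. Motor neurons held 4 Chrna4 UMIs and 24 Chrnb2 UMIs in all. By UMIs per nucleus, the Schwann and meningeal group fell to place 13 of 18 for Ache, 9 for Chrna4 and 14 for Chrnb2.

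The receptors of larger genes were widespread in neurons. Chrm2 was at 954 ± 257 CPM in motor neurons (lowest 621, median 951, highest 1385), above VC (651 ± 147 CPM) in 10 of 12 mice, and was lowest in endothelial cells, at 25.5 CPM. Chrm3 was highest in other groups. It was at 1349 ± 266 CPM in DI and 801 ± 101 CPM in ME, with DI above ME in 12 of 12 mice, and at 50.2 ± 64.3 CPM in motor neurons, which took place 16 of 18. Chrna7 was at 133 ± 37.6 CPM in MI and 125 ± 60.2 CPM in VM, which did not differ beyond their spread (MI was higher in 5 of 12 mice), at 63.7 ± 42.3 CPM in motor neurons and at 32.6 ± 9.42 CPM in DI. In microglia, whose nuclei had a median of 46927 UMIs, Chrm2, Chrm3 and Chrna7 stood at 282, 336 and 43.3 CPM. The nuclei labelled microglia held 80.9 CPM of their own 3 markers and 518 CPM of the 3 neuron markers, beside 795 CPM of the latter in neurons, and the part of neuronal RNA in these levels was not tested.

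Genes with a like pattern over the 18 groups were sought among 11528 genes, as Pearson's r of log2(CPM + 1), which is a description since the groups share libraries and differ in depth. The nearest were Ecel1 (0.78), Gm39185 (0.78) and Slc5a7 (0.76) for Chat. For Slc5a7 they were Acly (0.94), the enzyme that makes acetyl-CoA in the cytosol, Prph (0.92) and Spag5 (0.89). They were Ckmt1, Arl4c and Trnp1 for Ache (0.91 each), Sgcz, Kcnh1 and Cntnap2 for Chrm2 (0.97 each) and Zmat4 (0.95), Cacna1i (0.95) and Grm5 (0.94) for Chrm3. The nicotinic subunits were nearest to Fndc5 (0.89) and Ndufb2 (0.88) for Chrna4, to Tenm1 (0.96), Cntnap5b (0.96) and Cntn5 (0.95) for Chrna7 and to Ube2ql1 (0.95), Tk2 (0.95) and Kcnh2 (0.94) for Chrnb2. Between members, r was 0.86 for Chrm2 and Chrna7 and −0.49 for Slc5a7 and Chrm3.

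The VC label was uneven in Chat. Of its 350 nuclei, 75 had a Chat UMI and 275 had none. The 49 nuclei with 3 Chat UMIs or more, from 10 mice, held 345 of the 384 Chat UMIs (89.8%). They were chosen by Chat itself, which favours a high share. Nuclei with at least 1 but fewer than 3 Chat UMIs were in neither set. In these 49, Slc5a7 was found in 71.4%, Slit3 in 98.0% and Slc17a6, the vesicular glutamate transporter, in 32.7%. In the 275 nuclei without Chat, the shares were 9.45% for Slc5a7, 35.6% for Slit3 and 76.7% for Slc17a6. The median depths were 22572 UMIs in the 49 nuclei and 16133 UMIs in the 275, and these shares were not thinned. Of the motor neuron markers, pooled over the 49 nuclei, Slit3 was at 1237 CPM, Isl1 at 13.9 CPM and Mnx1 at 0, beside 1065, 16.0 and 3.04 CPM in motor neurons. Prph, pooled likewise, was lower in the 49 nuclei, at 23.8 CPM beside 85.5 CPM in motor neurons. It was in 26.5% of the 49 nuclei and 4.36% of the 275. Among VM nuclei, 10 with 3 Chat UMIs or more carried 47 of 67 Chat UMIs, and Gad1 was in 9 of them.

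The first comparison asked whether the members differ between SOD1G93A and WT mice within a type. UMIs were summed per mouse and type and tested with limma over all genes of the type, at a false discovery rate (FDR) below 0.1. Among the 84 tests of a member in a type or sub-type, 0 were called, 11 had an unadjusted p under 0.05, and edgeR and DESeq2 also called 0. The share of all genes at an unadjusted p under 0.05 was 15.9% in motor neurons, 13.6% in astrocytes and 3.34% to 7.94% in the other groups with a testable member. In motor neurons 157 of 5118 genes were called, which is 3.07%, against 0 of the 6 members that passed the filter on low counts. Of all genes tested in the other cell types and sub-types, the share called was 2.29% in astrocytes, 0.0131% in endothelial cells, 0.0759% in microglia, 0.0255% in neurons, 0.0411% in oligodendrocyte precursors (OPCs), 0.0475% in oligodendrocytes, 0.036% in the Schwann and meningeal group, 0.0329% in DE, 0.019% in DI. It was 0.06% in MI, 0.027% in neurons of unclear sub-type, 0.0296% in VC, 0.00871% in VE, 0.0231% in VI (ventral inhibitory) and 0.0243% in VM. No gene was called in ependymal cells, fibroblasts or ME.

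**Figure D2:**
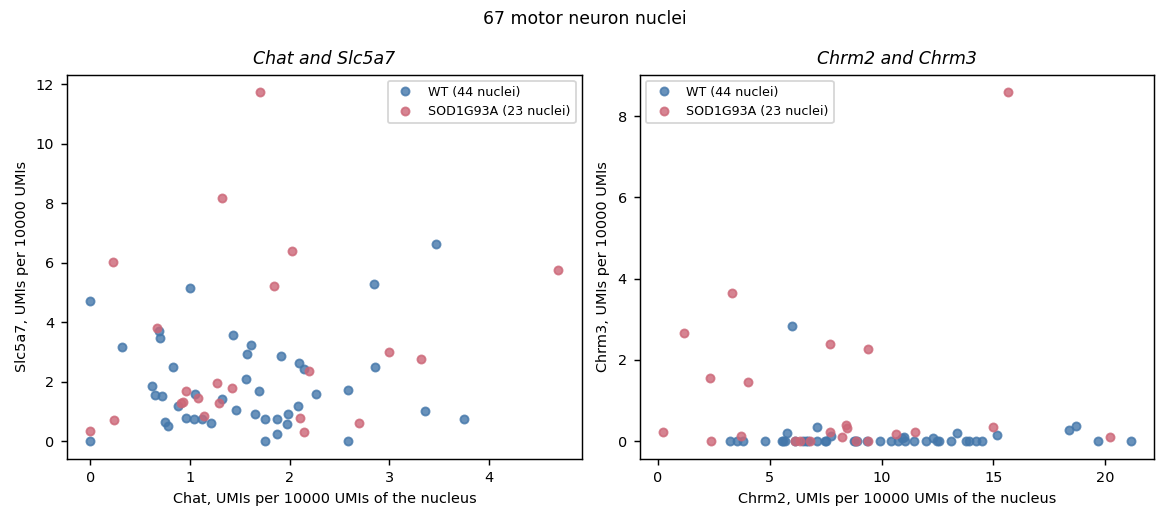
Each point is 1 of 67 motor neuron nuclei, with UMIs of Chat and Slc5a7 (left) and Chrm2 and Chrm3 (right) per 10000 UMIs of the nucleus, coloured by genotype. Chrm3 is at or near 0 in most WT nuclei, and 7 of 23 SOD1G93A nuclei and 1 of 44 WT nuclei have 5 or more Chrm3 UMIs.

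Chat in motor neurons was at 78.1 CPM in the lowest WT mouse, a median of 164 and a highest of 274, against 84.5, 138 and 227 CPM in the SOD1G93A mice. The groups overlapped throughout. The fitted log2 fold change (SOD1G93A minus WT) was −0.12 ± 0.29 (SE, n = 6 and 6 mice), with a 95% interval of −0.74 to 0.51 and a limma FDR of 0.90.

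Slc5a7 came nearest to the threshold. Its level was 97.7, 169 and 204 CPM in the lowest, median and highest WT mouse and 145, 260 and 432 CPM in the SOD1G93A mice. The highest 4 mice were all SOD1G93A, and the other 2 SOD1G93A mice, with 1 and 5 motor neuron nuclei, lay within the WT range at 145 and 188 CPM. In pairs of 1 sex and pool, SOD1G93A was higher in 4 of 6 and lower in 2. The nuclei of the SOD1G93A female of pool A held 17 and 63 UMIs, and 1 nucleus of the SOD1G93A male of pool C held 69. The median nucleus had 1.79 Slc5a7 UMIs per 10000 in SOD1G93A (highest 11.7) and 1.54 in WT mice (highest 6.63). The log2 fold change was 0.72 ± 0.22 (interval 0.26 to 1.19), with a limma p of 0.0041 and an FDR of 0.113. The call turned on settings. With a minimum count of 30 the FDR was 0.0912, with the pool B SOD1G93A male left out it was 0.0845, and with the pool B WT male left out 0.0210. The FDRs of edgeR and DESeq2 were 0.224 and 0.30, and the 10 mice with at least 3 motor neuron nuclei gave 0.515. Over all mice left out in turn the log2 fold change ran from 0.54 to 0.97.

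Ache had the same sign, at 0 to 75.7 CPM (median 40.9) in SOD1G93A and 3.76 to 34.6 CPM (median 26.2) in WT mice. Its groups overlapped, and its log2 fold change of 0.71 ± 0.34 had an FDR of 0.31. Chrm2 went the other way, at 621 to 1385 CPM (median 805) in SOD1G93A and 680 to 1329 CPM (median 1028) in WT mice, being lower in SOD1G93A in 5 of 6 pairs of 1 sex and pool. Its log2 fold change was −0.39 ± 0.17, with an FDR of 0.25. Chrna7 did not differ detectably (0.04 ± 0.54, FDR 0.98).

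Chrm3 in motor neurons rested on few nuclei. WT mice stood at 0, 2.79, 6.14, 6.72, 15.0 and 117 CPM and SOD1G93A mice at 0, 27.0, 33.2, 65.0, 137 and 192 CPM. A single nucleus of the male WT mouse of pool A held 51 of the 67 WT UMIs. In SOD1G93A mice, 1 nucleus of the female of pool B held 28 of the 132 UMIs. A Chrm3 UMI was found in 17 of 23 SOD1G93A and 11 of 44 WT nuclei, without thinning, and the SOD1G93A nuclei were deeper (median 60146 against 43895 UMIs). The log2 fold change was 2.44 ± 1.34 with an FDR of 0.44, and without that WT mouse 3.51 with an FDR of 0.0171. With each mouse left out in turn it ran from 1.35 to 3.51, and the FDR from 0.0171 to 0.671. The 8 nuclei with 5 or more Chrm3 UMIs had medians of 2.20 Mbp and 4.97 Slit3 UMIs per 10000, against 0.723 and 10.5 in the other 59. The oligodendrocyte marker Mbp in motor neurons was at 30.0 to 262 CPM (median 187) in SOD1G93A and 26.3 to 284 CPM (median 98.1) in WT mice, and the summed inhibitory neuron markers were at 0 to 103 CPM (median 44.5) and 0 to 49.8 CPM (median 6.55). The part of either in the Chrm3 values was not tested.

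**Figure D3:**
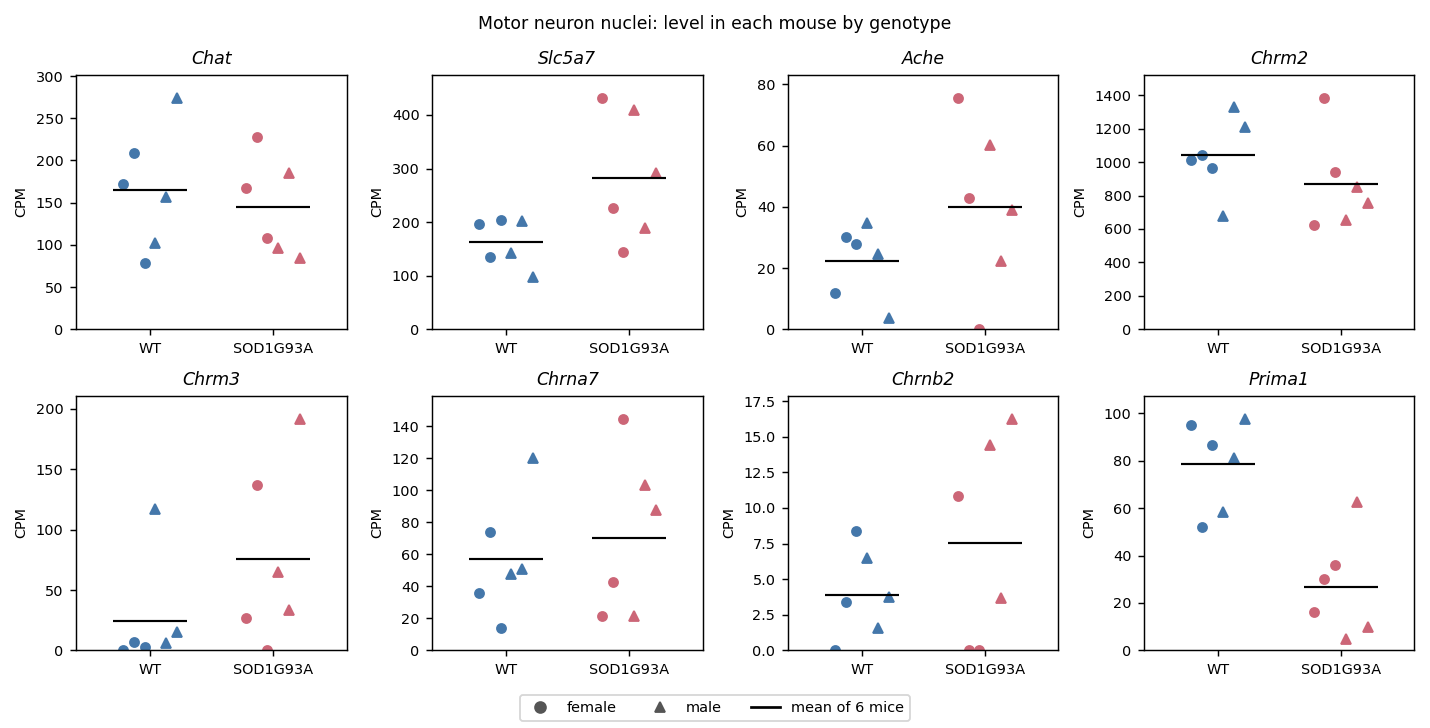
CPM of 7 members and Prima1 in the motor neuron nuclei of each mouse, by genotype, with circles for females, triangles for males and a line at the mean of 6 mice. Values overlap between genotypes in every panel, and 5 of 6 SOD1G93A mice are below every WT mouse for Prima1.

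Chrna4 and Chrnb2 did not pass the filter in motor neurons. Chrnb2 was at 0 to 16.3 CPM in SOD1G93A and 0 to 8.37 CPM in WT mice, on 14 and 10 UMIs. The share of nuclei with a UMI was compared after thinning, as the expected share over all draws of 10000 UMIs in a motor neuron or 2000 UMIs in another neuron. In motor neurons Chat was found in 75.3% (55.3 to 87.4 over WT mice) and 74.3% (48.3 to 91.4 over SOD1G93A mice) of nuclei, and Slc5a7 in 71.9% (55.7 to 83.8) and 81.7% (64.3 to 93.8), with exact two-sided permutation p of 0.91 and 0.11. The single random draw planned gave 77.1% and 68.3% for Chat (exact permutation p = 0.67). For Slc5a7 that draw ran the other way, at 75.4% and 58.1% (exact permutation p = 0.32). In the other neurons Chat or Slc5a7 was found in 2.02% of WT and 2.19% of SOD1G93A nuclei (exact permutation p = 0.26). The single random draw planned for this comparison gave 2.30% and 1.67% (exact permutation p = 0.00433, adjusted 0.039 over 9 shares), and without thinning the shares were 9.14% and 9.23% (exact permutation p = 0.93). The direction thus turned with the draw. For Slc5a7 alone the expected shares, as means over mice, were 1.48% and 1.60%, and no direction was read from them. Oligodendrocytes stood at 1.84%, which is a different measure, the share of pooled nuclei in 1 random draw.

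In the other types, Chrna7 was the member with the most differences at an unadjusted p under 0.05, in 5 of the 15 groups where it passed the filter, and all 5 were lower in SOD1G93A mice. Of all genes, 4.16% in neurons, 6.70% in DE, 3.34% in VE, 5.55% in neurons of unclear sub-type and 7.94% in microglia had such a p. The groups are neurons as a whole and, within them, DE, VE and neurons of unclear sub-type, so they share nuclei, besides microglia. In the nuclei labelled microglia, with the neuron markers given above, Chrna7 stood at 8.51 to 55.2 CPM in SOD1G93A and 30.0 to 88.5 CPM in WT mice, overlapping, with a log2 fold change of −0.58 ± 0.19 and a limma FDR of 0.34. In DE it was at 35.8 to 103 CPM and 39.8 to 124 CPM, lower in 5 of 6 pairs (−0.36 ± 0.12, FDR 0.45). In VE and the unclear neurons the log2 fold changes were −0.33 ± 0.13 (FDR 0.999) and −0.45 ± 0.15 (FDR 0.63). Of the 15 groups, 11 had a value below 0 and 4 above, and none was called.

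**Figure D4:**
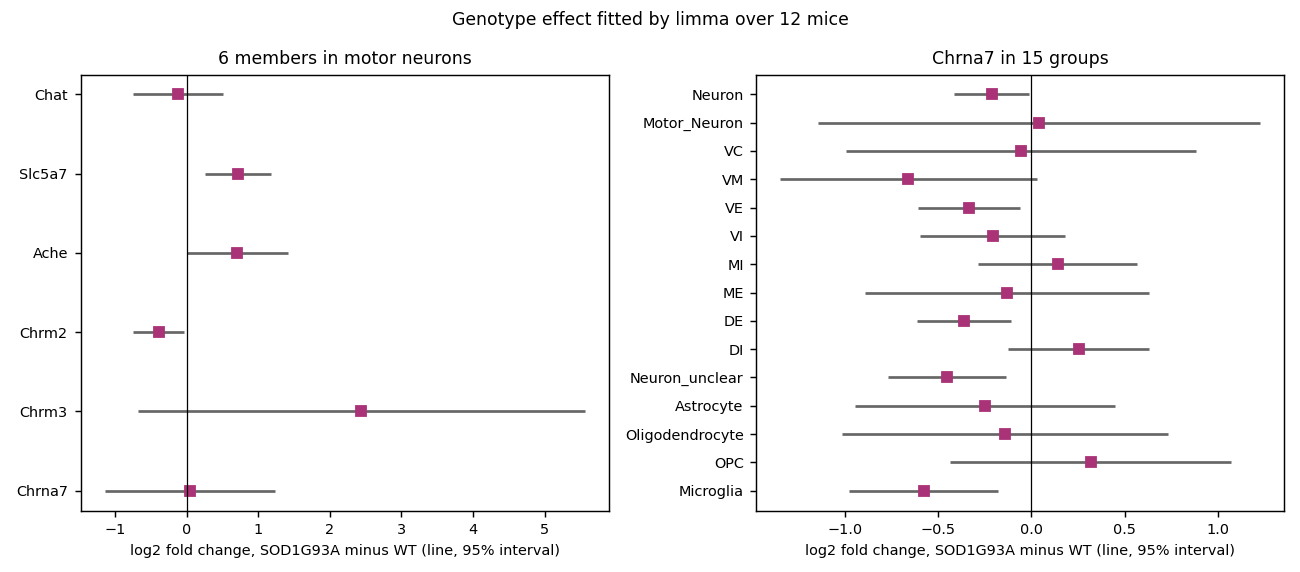
Log2 fold change between SOD1G93A and WT mice with its 95% interval from the limma fit, for the 6 members tested in motor neurons (left) and for Chrna7 in 15 groups (right). The interval of Slc5a7 runs from 0.26 to 1.19, and no value shown passed FDR below 0.1.

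Chrm3 in OPCs was at 315 to 387 CPM in 5 SOD1G93A mice and 90.2 CPM in the other, which had 2 OPC nuclei, against 81.3 to 370 CPM in WT mice (median 141). It was higher in SOD1G93A in 5 of 6 pairs, with a log2 fold change of 1.08 ± 0.33 and a limma FDR of 0.53. Chat, tested in 3 groups, had no unadjusted p under 0.05, and in VC it ranged from 2.81 to 124 CPM in SOD1G93A and 2.74 to 82.3 CPM in WT mice.

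The genes around the members were read from 3 lists. Of 12 genes of receptor assembly, breakdown and choline supply, 7 passed the filter in motor neurons, of which 1 was called lower in SOD1G93A mice and 0 higher, beside a background of 3.07%. Their median log2 fold change was −0.13, against 0.00195 over all genes. The gene called was Prima1, whose protein anchors acetylcholinesterase in the neuronal membrane. It was at 4.82 to 62.7 CPM (median 23.1) in SOD1G93A and 52.1 to 97.7 CPM (median 83.9) in WT mice, with a log2 fold change of −1.77 ± 0.45 and a limma FDR of 0.0632. Oligodendrocytes also had Prima1, at 102 CPM. Mbp in motor neurons did not differ detectably between genotypes (log2 fold change 0.17 ± 0.47, limma FDR 0.91). The part of oligodendrocyte RNA in the Prima1 values was not tested. The FDR of Prima1 ran from 0.000377 to 0.309 over 7 alternative settings, edgeR among them. The call was lost in the setting at 0.309, with edgeR (FDR 0.104) and in 9 of the 12 fits with 1 mouse left out. Over all 12 fits the FDR ran from 0.00827 to 0.191 and the log2 fold change from −2.42 to −1.41. Chka, choline kinase, and Slc44a1, a choline transporter, were the list's highest genes in motor neurons (248 ± 33.6 and 152 ± 43.8 CPM), with FDRs of 1.0 and 0.57.

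Of the 16 other acetylcholine receptor genes, 0 passed the filter in motor neurons and 2 in neurons, and none was called. The highest in motor neurons, Chrnb1 and Chrna3, were at 2.44 and 1.17 CPM. Of the 5 organiser genes of the neuromuscular synapse, only Agrn, which encodes the agrin that motor axons release, was testable in motor neurons (111 ± 34.3 CPM, log2 fold change −0.25 ± 0.25, FDR 0.69). Lrp4, the agrin receptor, stood at 6.09 CPM there. Across all groups, 31 tests of this list gave 0 calls and 120 tests of the assembly list gave the 1 named.

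The second comparison was between the sexes, over both genotypes. In the 8 cell types with a testable member 0 of 37 tests of a member were called with limma, with 5 at an unadjusted p under 0.05 (3.86% to 10.7% of all genes by cell type), and 0 with edgeR. Of all genes, the share called between the sexes was 0.139% in astrocytes, 0.223% in endothelial cells, 0.212% in ependymal cells, 0.178% in fibroblasts, 0.434% in microglia, 0.117% in motor neurons, 0.0701% in neurons, 0.185% in oligodendrocyte precursors (OPCs), 0.057% in oligodendrocytes. It was 0.108% in the Schwann and meningeal group, 0.114% in DI, 0.0754% in ME, 0.063% in neurons of unclear sub-type, 0.0888% in VC, 0.0697% in VE, 0.104% in VI and 0.121% in VM. In the neuron sub-types 2 of 47 were called, where 0.0903% of genes were called in DE and 0.135% in MI. Chrna7 in DE was at 49.0, 75.3 and 124 CPM in the lowest, median and highest female and 35.8, 44.0 and 74.1 CPM in the males. Females were higher in 6 of 6 pairs of 1 genotype and pool, though the groups overlapped, and the log2 difference was 0.71 ± 0.12 (limma FDR 0.0239, edgeR FDR 0.0131). With each mouse left out in turn it kept its sign and lost the call in 2 of 12 fits, without the SOD1G93A female (FDR 0.180) or the WT female (FDR 0.134) of pool C.

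Chrm3 in MI was at 209, 333 and 390 CPM in the lowest, median and highest female and 347, 427 and 606 CPM in the males, a log2 difference of −0.47 ± 0.10 with a limma FDR of 0.0817. The WT females (327 to 390 CPM) and WT males (347 to 391 CPM) overlapped almost fully. The SOD1G93A females (209 to 340 CPM) were all below the SOD1G93A males (462 to 606 CPM). The genotype effect in males minus that in females was 0.91 ± 0.21, with a limma p of 0.000148 and an FDR of 0.141, so the interaction was not called. edgeR gave FDRs of 0.144 for the difference between the sexes and 0.326 for the interaction, and that call was lost in 9 of the 12 fits with 1 mouse left out. Of 84 interaction tests, 0 were called with limma and 0 with edgeR, with 6 at an unadjusted p under 0.05 (2.10% to 7.09% of all genes by group). Of all genes, the share called for the interaction was 0.0107% in astrocytes, 0.0586% in motor neurons, 0.00821% in DE, 0.0899% in MI, 0.459% in neurons of unclear sub-type and 0.0115% in VI, and 0% elsewhere.

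**Figure D5:**
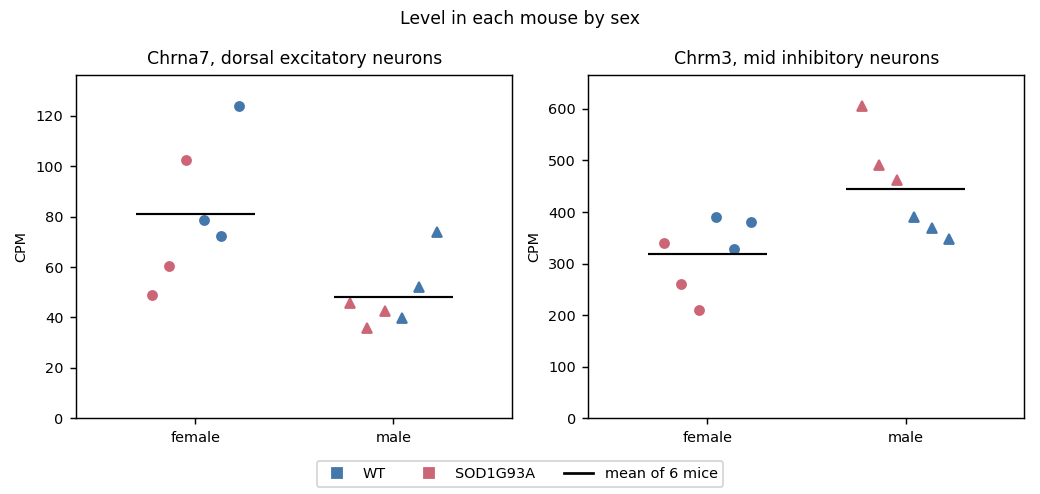
CPM of Chrna7 in dorsal excitatory neurons (left) and of Chrm3 in mid inhibitory neurons (right) in each mouse by sex, coloured by genotype, with a line at the mean of 6 mice. For Chrm3 the 3 SOD1G93A males, at 462 to 606 CPM, lie above all other mice and WT mice of both sexes overlap.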

How the data were processed

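Nuclei of the lumbar cord were hashtagged, pooled and sequenced with 10x Genomics v3 chemistry. The authors made the deposited table of raw UMI counts per nucleus with Cell Ranger 3.1 (STAR 2.5.1b, bcl2fastq 2.20.0.422, mm10), counting reads over whole genes including introns, and assigned nuclei to mice by hashtag in Seurat 4.0.3 and R 4.0.3. They removed nuclei of low quality or with no or several hashtags, and their cell type labels were used as deposited. Doublets of nuclei of 1 mouse are not removed by hashtags, and no doublet caller was run here. The table held 206486779 UMIs, 548 to 1420 nuclei per SOD1G93A mouse and 896 to 2259 per WT mouse. 15 barcodes occurred in more than 1 pool and were kept as separate nuclei.

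UMIs were summed per mouse and type and tested with limma 3.58.1 (voom, TMMwsp, filterByExpr with a minimum count of 10, robust eBayes, a term for the pool) in R 4.3.3. Adjustment was by Benjamini-Hochberg over all genes of a type, with a threshold of 0.1, and the fits were tested on simulated data. edgeR 4.0.16 and DESeq2 1.42.0 were alternatives, besides other filters and each mouse left out in turn. Shares of nuclei were compared by an exact permutation test over 924 splits of 12 mice, which took no account of pool or sex. The pool, which the labels give as the batch, holds 1 mouse of each sex and genotype. It serves as the block in the limma, edgeR and DESeq2 fits only.

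Intervals and limits on counts cover counting error only. The members, lists and tests were chosen with earlier results of these data known. Genes named beside the members were those of the lists past the threshold, the 2 of each list highest in motor neurons, and the 3 most like each member among genes with at least 1000 UMIs. Lrp4, Isl1 and other markers were named after their values were seen. Some marker and like-patterned genes are not reported here. The expected shares over all thinnings and the sex contrast in sub-types were added after seeing the data. Promoters are from RefSeq, GRCm38.p6.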

Additional observations from a re-analysis of the deposited data

Results flagged for a closer look

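By Dixon's test at the 95% level, a mouse stood apart from the other 5 in 5 of 38 groups of 6 mice searched. Chance flags about 1 in 20 groups of normal values. CPM from few nuclei or UMIs need not keep to that rate, and the count of 5 was not read as an excess. The groups searched were of 1 genotype or of 1 sex. Those of Slc18a3 in motor neurons, at 0 throughout, could not be flagged. For Chrm3 in motor neurons this was the male WT mouse of pool A, at 117 CPM, with the next WT mouse at 15.0 CPM. For Chrna4 in motor neurons it was the male SOD1G93A mouse of pool A, at 2.41 CPM from 1 UMI, with the other 5 at 0. Such a pattern is flagged whatever the 1 value above 0. For Chrna7 the female SOD1G93A mouse of pool C stood at 103 CPM in DE, above the next at 60.6 CPM. Among neurons of unclear sub-type the female WT mouse of pool C stood at 102 CPM, above the next at 84.0 CPM. For Chrm3 in OPCs the female SOD1G93A mouse of pool C was lowest, at 90.2 CPM in 2 nuclei, below the next at 315 CPM.

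In 2 of 84 tests of a member in a group, all pairs of males of 1 pool differed in the same direction between genotypes. All pairs of females differed in the opposite direction. With few pairs of each sex, chance alone can give this pattern in some of the 84 tests. The count of 2 was not tested against chance and was not read as an excess. For Chrm3 in MI, SOD1G93A males were higher and SOD1G93A females lower, with an interaction of 0.91 ± 0.21 on the log2 scale (limma FDR 0.141). For Chat in VC, males were lower and females higher, with an interaction of −2.11 ± 1.01 (limma FDR 0.998).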

How the results depend on the processing

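No member was called for genotype in any type under limma, edgeR, DESeq2, TMM factors, eBayes without the robust option or no pool term. With a minimum count of 30, 1 was called, Slc5a7 in motor neurons (log2 fold change 0.85), and with no filter 1 in cell types, Chrm3 in motor neurons (2.25, FDR 0.0385), and 1 in sub-types, Chrna4 in ME (2.16, FDR 0.0482). The fit without the pool, which is the replicate block, changed no count of calls, and turned the log2 fold change of Chrna7 in motor neurons to −0.26. That value was −0.070 with DESeq2, −0.11 with edgeR, −0.040 with no filter and −0.14 with the mice of at least 3 nuclei, and Chat with a minimum count of 30 was 0.014. The cause was not tested.

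With each mouse left out in turn, genotype calls among the members ran from 0 to 1 by cell type and in motor neurons and stayed at 0 by sub-type, sex calls by sub-type from 0 to 2, interaction calls by sub-type from 0 to 2 and shares past the threshold from 0 to 2. The log2 fold change in motor neurons ran from −0.33 to 0.060 for Chat and from −0.48 to 0.72 for Chrna7. Chrm3 in OPCs was called without the female WT mouse of pool C (1.37, FDR 0.0926), and with the pool B WT female left out the interaction was called for Chrm3 in MI (FDR 0.0486) and for Chrna7 in neurons of unclear sub-type (FDR 0.0900). Sex calls for Chrm2 in ventral inhibitory neurons appeared in 4 of the 12 fits. edgeR called 1 member between the sexes by sub-type.

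For the shares, no share passed 0.05 with the expected share over all thinnings (0 of 9) or with no thinning (0 of 9). SOD1G93A minus WT, in percentage points, turned with no thinning to −0.224 for Chat, 0.336 for Slc5a7 and 0.0903 for either in neurons, and to 1.13, 7.77 and 2.08 in motor neurons. With expected shares it turned to 0.118 for Slc5a7 and 0.175 for either in neurons, and to 9.79 and 0.629 in motor neurons. With mice left out it ran from −0.0145 to 0.110 for Chat in neurons, −1.43 to 1.24 in VC and −15.1 to 4.90 in motor neurons.

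By UMIs per nucleus, motor neurons took place 1 for Slc5a7, Ache, Chrna7 and Chrnb2, 11 for Chrm3 and 12 for Chrna4. By CPM, where they held places 3 for Ache, 16 for Chrm3, 7 for Chrna7 and 8 for Chrnb2 over all mice, they took in WT mice alone place 10 for Ache, 18 for Chrm3, 8 for Chrna7 and 14 for Chrnb2. The low counts of Chrna4 and Chrnb2, and the 23 SOD1G93A motor neuron nuclei, limit what could be detected.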
